A study of Mus musculus with 2 samples.

Results

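Igfbp2, Igfbp3 and Fgf1 are the 3 genes described here, out of 480 on a custom Xenium panel for mouse skin. They are taken by name from the lists of decoded transcripts, keeping transcripts with a quality score of at least 20. The 3 were chosen by measured values, the lower levels of Igfbp3 and Fgf1 in the epithelium of the mutant section, so the epithelial ratios below are a description and carry no test. Xenium images tissue and reads out individual RNA molecules where they lie. A 5 µm section of fixed, paraffin-embedded whole skin was imaged from each of 2 groups of female B6/129 mice: 1 WT control section and 1 Utx-cKO section. In Utx-cKO skin the histone demethylase gene Kdm6a, also called Utx, is deleted by Krt14-Cre in tissues that express Krt14, so stromal cells are not the target. No treatment was given. The sources used here give neither the age of the mice nor how many mice a section holds.

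Igfbp2 and Igfbp3 encode secreted proteins that bind insulin-like growth factors and thereby control how much of them reaches the receptor. IGFBP-3 is also the main carrier of these factors in blood, and both proteins have effects that do not need the growth factor. Fgf1 encodes acidic fibroblast growth factor, which binds the whole family of fibroblast growth factor receptors and leaves cells without a classical signal peptide. In skin, insulin-like and fibroblast growth factors pass between dermis and epithelium and act on keratinocyte growth, wound repair and the hair cycle.

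With 1 section per group nothing could be tested. Intervals in parentheses are exact 95% intervals for counting error only and leave out differences between animals. Levels are CPM, panel counts scaled to the same total, in cells with at least 20 transcripts, 33263 in WT (median 62 transcripts) and 37395 in Utx-cKO (median 48). The cells were clustered without the 3 genes into 17 clusters, and keratinocyte markers put 9 of these in the epithelium (14561 WT cells and 18758 Utx-cKO cells). Clusters are called by their 2 leading genes, and "-like" marks a name that the marker lists allowed. Each section holds 4 separate strips of tissue, numbered from left to right, which are not replicates. Kdm6a itself had 2779 and 2228 CPM in WT and Utx-cKO epithelial cells, a log2 ratio of -0.32 (-0.39 to -0.25). Its strips overlapped, and the ratio ranged from -0.53 without Utx-cKO strip 3 to -0.063 without WT strip 3. Where its probes lie relative to the deleted exons is not stated.

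The WT section held 1648 Igfbp2, 32712 Igfbp3 and 4385 Fgf1 transcripts, and the Utx-cKO section 1273, 29879 and 2531. All 3 passed the panel's negative control probes by a wide margin: these 20 probes had medians of 5 and 9.5 counts in cells and highest values of 117 and 199. The 3 genes had more transcripts outside cells than is usual on this panel. In WT 70.3% of Igfbp2, 73.9% of Igfbp3 and 71.3% of Fgf1 transcripts lay in a cell, against a median of 88.9% over genes. In Utx-cKO the values were 70.0%, 78.6% and 81.7%, against 92.7%. The outside transcripts lay a median of 9.62 to 12.9 µm from the centre of a kept cell over the 3 genes and both sections. For Igfbp3 and Fgf1 the nearest kept cell was nearly always non-epithelial, for 97.1% and 98.2% in WT and 95.8% and 96.5% in Utx-cKO. For Igfbp2 it was non-epithelial for 45.6% and 50.3%. The rest lay beside epithelium, with 25.2% (WT) and 31.4% (Utx-cKO) nearest to the basal keratinocyte-like cluster and 23.5% and 13.4% nearest to the Krt1/Wnt3 cluster.

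The 3 genes had different homes in the skin. Igfbp3 was mainly stromal: non-epithelial cells held 81.1% of its in-cell transcripts in WT and 89.0% in Utx-cKO. Fgf1 had its largest source in the muscle-gene cluster Slc16a3/Cryab, with 39.8% of in-cell transcripts in WT and 33.6% in Utx-cKO. The follicle-gene cluster Lhx2/Tbx1 held 19.5% and 10.2%, the blood endothelial-like cluster Myh11/Vwf 6.5% and 10.4%, and other clusters the rest. Myh11/Vwf is not blood endothelium alone. Its leading genes start with the smooth muscle gene Myh11 and hold 4 blood endothelial and 2 lymphatic endothelial markers. In all, 63.3% (WT) and 67.8% (Utx-cKO) of Fgf1 was in non-epithelial cells. Igfbp2 was the sparsest, with 1059 and 709 transcripts in kept cells, and 70.2% and 61.8% of them were non-epithelial. The 2 sections also differ in how many kept cells were epithelial, 43.8% in WT and 50.2% in Utx-cKO, and these shares move with that.

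Among the 16 clusters reported, Igfbp3 was highest in fibroblast-like cells. In WT its level was 25463 CPM (24816 to 26123) in the Sfrp2/Fn1 fibroblast-like cluster. Next came Mfap4/Mmp27 fibroblast-like cells with 14886 CPM (14374 to 15412) and the lipid-gene cluster Cd1d1/Fasn with 13811 CPM (13270 to 14368). WT strips of the Sfrp2/Fn1 (13555 to 39191 CPM), Mfap4/Mmp27 (8317 to 21481 CPM) and Cd1d1/Fasn (4527 to 22835 CPM) clusters overlapped one another. Lower non-epithelial levels followed in the muscle-gene cluster Slc16a3/Cryab (9078 CPM), the blood endothelial-like cluster Myh11/Vwf (8809 CPM) and C1qa/Cd68 macrophage-like cells (5256 CPM). The highest epithelial levels were in Krt1/Wnt3 cells (6293 CPM), the Lhx2/Tbx1 cluster (5921 CPM), the Dct/Pmel cluster (5664 CPM) and Sostdc1/Cd3e basal keratinocyte-like cells (4937 CPM). The lowest were in Sprr1a/Krt79 upper hair follicle-like cells (377 CPM) and Fa2h/Cidea sebocyte-like cells (331 CPM).

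Fgf1 had another order. Its highest WT level was 4873 CPM (4602 to 5155) in the Slc16a3/Cryab cluster, whose leading genes include Tnnt1 and Mef2c of striated muscle and the glycolytic genes Ldha and Pkm. The Lhx2/Tbx1 epithelial cluster followed with 3740 CPM (3445 to 4053), and their WT strips overlap, 2635 to 7737 and 2981 to 4503 CPM. Then came the unnamed Gata2/Spink6 cluster (2270 CPM from 9 transcripts) and the epithelial clusters Serpinb11/Krt17 (2207 CPM), Dct/Pmel (2015 CPM) and Serpinb11/Ptgds (1694 CPM). Lhx2 and Tbx1 mark the lower hair follicle, and Lhx2 is among the leading genes of each of these epithelial clusters. The marker lists did not name any of them lower follicle: Serpinb11/Krt17 was upper hair follicle-like and Dct/Pmel melanocyte-like. Lhx2/Tbx1 and Serpinb11/Ptgds stayed unnamed. Keratinocytes outside these clusters had little Fgf1: 534 CPM in basal keratinocyte-like, 191 CPM in Lce1m/Hal cells and 139 CPM in sebocyte-like cells.

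The largest single source of Igfbp2 was the Mfap4/Mmp27 fibroblast-like cluster. It had 2251 CPM (2055 to 2462) in WT and held 45.5% of in-cell Igfbp2 in WT and 33.0% in Utx-cKO. The Sfrp2/Fn1 fibroblast-like cluster had 230 CPM (172 to 301). Sebocyte-like cells (628.5 CPM, 508 to 768), Myh11/Vwf cells (550.2 CPM, 441 to 678) and basal keratinocyte-like cells (544 CPM, 447 to 655) were next, with intervals that overlap one another. The 2 granular keratinocyte-like clusters differed, with 293 CPM in Krt1/Wnt3 and 62.1 CPM in Lce1m/Hal cells, from 79 and 12 transcripts. Lhx2/Tbx1 cells had 44.0 CPM, from 7 transcripts.

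**Figure D1:**
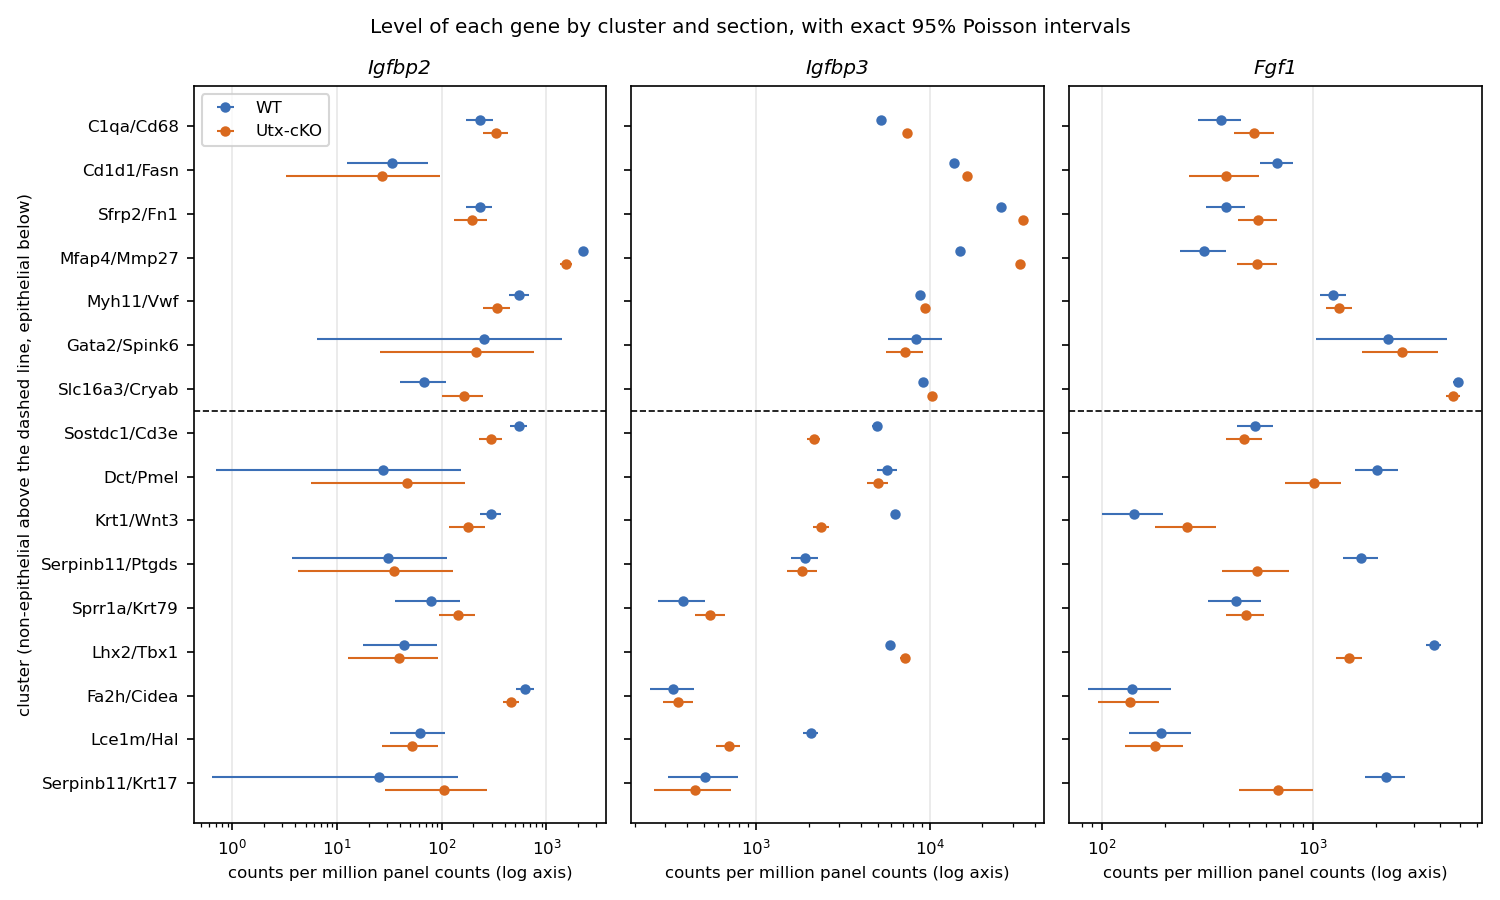
Level of each gene in CPM (log axis) in 16 clusters, WT in blue and Utx-cKO in orange, with bars for exact 95% Poisson intervals. Igfbp3 lies further left in orange in Sostdc1/Cd3e, Krt1/Wnt3 and Lce1m/Hal, Fgf1 does so in Lhx2/Tbx1, Dct/Pmel and both Serpinb11 clusters, and Igfbp2 is highest in Mfap4/Mmp27.

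The position of the transcripts differed as well. In non-epithelial cells of the WT section, Igfbp2 was concentrated beside the epithelium, by distance to the nearest epithelial cell: 2597 CPM under 10 µm, 2137 CPM at 10 to 20 µm, 521 CPM at 20 to 40 µm, 169 CPM at 40 to 80 µm, 85.0 CPM at 80 to 160 µm and 35.9 CPM beyond. In Utx-cKO it had 1341, 1277, 596, 196, 90.6 and 130.0 CPM in the same bins, so with strips pooled it was lower than WT within 20 µm. Most of this was within the Mfap4/Mmp27 fibroblast-like cluster, where WT Igfbp2 went from 5337 CPM under 10 µm to 830 CPM at 20 to 40 µm and 72.1 CPM, from 1 transcript, at 80 to 160 µm. The Utx-cKO cells of that cluster had 2509, 1099.9 and 183 CPM in these bins.

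Fgf1 ran the opposite way in non-epithelial cells. It had 457 CPM under 10 µm, 901 CPM at 40 to 80 µm and 2794 CPM beyond 160 µm in WT, and 532, 952 and 2275 CPM in Utx-cKO. Igfbp3 had no such slope in WT, at 16422, 16270, 16012, 18242 and 15920 CPM up to 160 µm and 8684 CPM beyond. In Utx-cKO it was 21389 CPM under 10 µm, 27255 CPM at 10 to 20 µm, 27558 CPM at 20 to 40 µm, 24804 CPM at 40 to 80 µm, 17850 CPM at 80 to 160 µm and 9540 CPM beyond. By CPM with strips pooled, the sections are thus farthest apart between 10 and 40 µm from the epithelium and close together past 80 µm. Over all non-epithelial cells the Igfbp3 log2 ratio was -0.056 without Utx-cKO strip 3 and 0.045 by mean counts per cell. Whether the profile holds by strip was not tested.

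Inside the Mfap4/Mmp27 fibroblast-like cluster the profiles of Igfbp2 and Igfbp3 ran opposite ways with strips pooled. WT Mfap4/Mmp27 cells had 8939.5 CPM of Igfbp3 under 10 µm, where Igfbp2 was highest, and 38027 CPM beyond 160 µm. Utx-cKO cells of this cluster had 16085 CPM of Igfbp3 under 10 µm and 50462 CPM at 80 to 160 µm. These far bins differ, so they do not compare the sections. By strip, Igfbp3 in this cluster was 8317 to 21481 CPM in WT and 5673 to 39834 CPM in Utx-cKO. In Sfrp2/Fn1 cells Igfbp3 was highest at 20 to 40 µm in both sections, 43315 and 56770 CPM, and was 14798 and 15359 CPM beyond 160 µm.

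**Figure D2:**
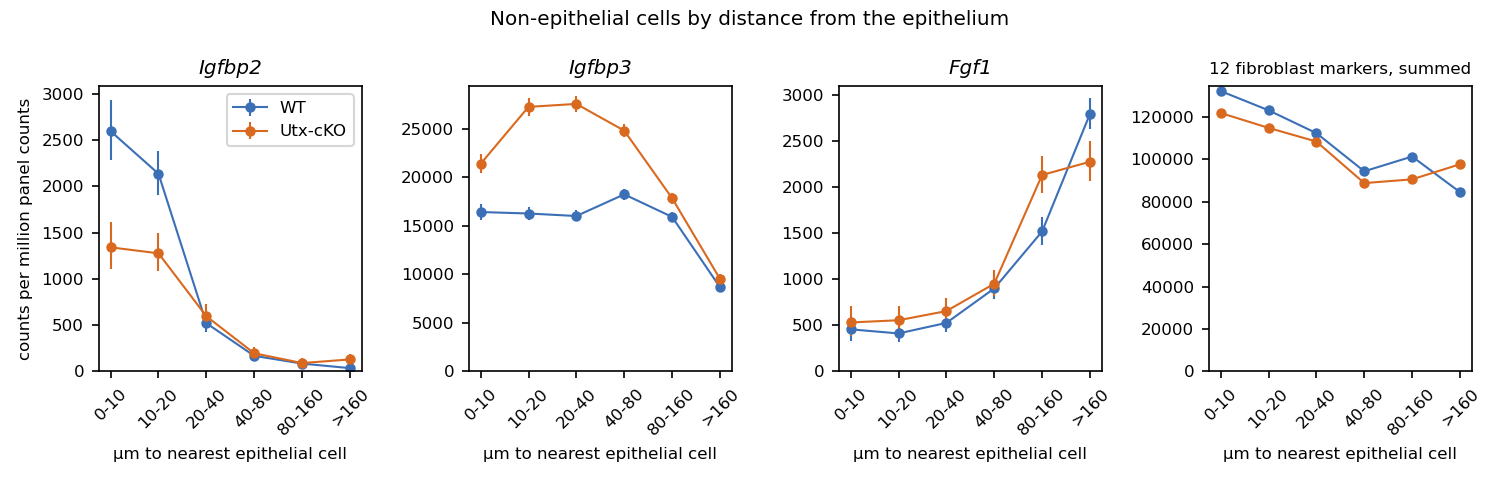
Level (CPM) of each gene in non-epithelial cells by distance to the nearest epithelial cell in µm, with exact 95% Poisson intervals, and the summed level of 12 fibroblast markers in the same cells. Strips are pooled. Igfbp2 is highest in the first 20 µm (2597 and 2137 CPM in WT), Fgf1 is highest farthest away (2794 CPM in WT), and Igfbp3 by CPM is above WT in Utx-cKO in each bin.

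**Figure D3:**
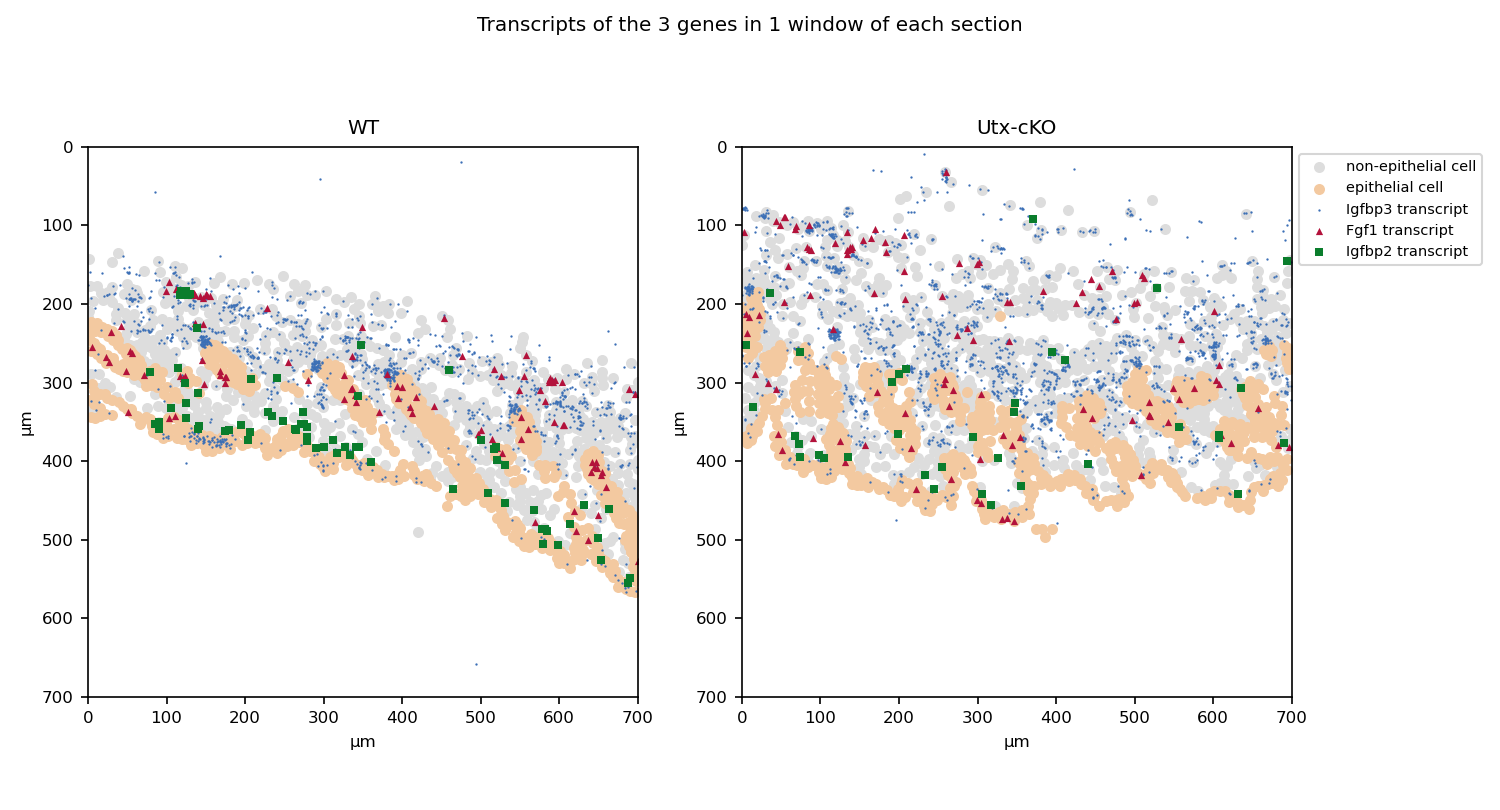
Transcripts of Igfbp3 (blue points), Fgf1 (red triangles) and Igfbp2 (green squares) over the centres of epithelial (tan) and non-epithelial (grey) cells in a window of 700 by 700 µm of strip 3 of each section, placed where kept cells are densest. The WT window shows 70 Igfbp2, 1314 Igfbp3 and 105 Fgf1 transcripts and the Utx-cKO window 36, 1971 and 107; most green squares lie near the surface epithelium at the lower edge, red triangles lie in follicles and in the deep tissue, and blue points are densest in the stroma.

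In epithelial cells as a whole, Igfbp3 and Fgf1 were lower in Utx-cKO, and these values chose them. Igfbp3 had 3640.2 CPM in WT and 1831 CPM in Utx-cKO, for a log2 ratio of -0.99 (-1.06 to -0.92), and Fgf1 had 909.6 and 451 CPM, a log2 ratio of -1.01 (-1.16 to -0.87). They were the 5th and 3rd lowest of 439 genes compared. In all, 14 genes, or 3.19%, were at least 1.5 times lower, the size rule used throughout, 12.5% were at least 1.5 times higher, and so 15.7% were that far apart. Igfbp2 had 257 and 203 CPM, a log2 ratio of -0.34 (-0.58 to -0.098), short of that size. The median gene had a log2 ratio of 0.12. On the scale of mean counts per cell the 3 ratios were lower still, -1.24 for Igfbp3, -1.26 for Fgf1 and -0.59 for Igfbp2, because Utx-cKO epithelial cells held 71.0 counts on average against 84.5.

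By strip, Fgf1 separated the sections and Igfbp3 did not, but the strips divide the same counts by which both genes were chosen. They add no separate support. Epithelial Fgf1 was 803, 1162, 814 and 876.5 CPM in WT strips 1 to 4 and 490.2, 387, 467 and 458 CPM in Utx-cKO strips, so each Utx-cKO strip was below each WT strip, as for 3.87% of genes. Epithelial Igfbp3 was 3624, 4721, 2017 and 6477 CPM in WT and 2872, 513, 1566 and 2698 CPM in Utx-cKO. WT strip 3 lay below Utx-cKO strips 1 and 4. Without WT strip 3 the log2 ratio was -1.34, and without Utx-cKO strip 2 it was -0.74. With clusters weighted to equal shares in both sections it was -0.58, just short of 1.5-fold.

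The 2 genes were lower in different epithelial clusters. For Igfbp3 these were the basal keratinocyte-like cluster and the Krt1/Wnt3 and Lce1m/Hal clusters, which are both granular keratinocyte-like by their markers; for Fgf1 they were the clusters with Lhx2 among their leading genes. Summing the clusters this way was decided after their values were seen. In the 3 basal to granular clusters WT cells had 4649.8 CPM of Igfbp3 (4487 to 4817) and Utx-cKO cells 1638 CPM (1537 to 1744). The log2 ratio was -1.51 (-1.61 to -1.40), where 4.37% of 343 genes were at least 1.5 times lower. In the same cells Fgf1 was 275 and 304 CPM (0.14, -0.16 to 0.45). In the 4 Lhx2/Tbx1, Dct/Pmel and Serpinb11 clusters Igfbp3 was 4311 and 4734 CPM (0.14, 0.022 to 0.25), whereas Fgf1 was 2885 and 1092 CPM (-1.40, -1.60 to -1.21), where 4.7% of 234 genes were at least 1.5 times lower. In the Sprr1a/Krt79 and Fa2h/Cidea clusters neither was past 1.5-fold, at 0.30 (-0.063 to 0.67) for Igfbp3 and 0.054 (-0.38 to 0.50) for Fgf1.

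The strips of the summed clusters, and of the single epithelial clusters below, divide the same counts by which the genes and sums were chosen. They add no separate support. Igfbp3 in the basal to granular clusters had 3602, 6491, 3043 and 8104 CPM in WT strips 1 to 4, and 2381, 380, 2221 and 1867 CPM in Utx-cKO. No Utx-cKO strip reached the lowest WT strip, as for 2.92% of genes. Its log2 ratio stayed between -1.76 and -1.14 with any 1 strip left out. Fgf1 in the 4 clusters with Lhx2 among their leading genes had 2547, 3779, 2627 and 2329 CPM in WT and 1315, 1648, 978 and 930.0 CPM in Utx-cKO, again without overlap, as for 2.14% of genes. Its log2 ratio stayed between -1.50 and -1.22.

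Among the basal to granular clusters, Igfbp3 was lowest relative to WT in Lce1m/Hal cells, which express the late cornification genes Lce1m, Lor and Flg2. They had 2059.8 CPM in WT and 693 CPM in Utx-cKO, for a log2 ratio of -1.57 (-1.85 to -1.30), the lowest of 235 genes; 5.96% of them were at least 1.5 times lower. WT strips had 1703, 2602.5, 1871 and 2493 CPM and Utx-cKO strips 1069, 217, 871 and 839 CPM, all below the WT strips, as for 2.98% of genes. Krt1/Wnt3 cells, which lead with the spinous keratin gene Krt1, had 6293 and 2362 CPM (-1.41, -1.58 to -1.25; 7.04% of genes lower). Their strips overlapped, WT at 3689.8 to 11891 CPM and Utx-cKO at 295 to 3933 CPM, and the ratio was -0.88 without Utx-cKO strip 2. Basal keratinocyte-like cells had 4937 and 2137 CPM (-1.21, -1.37 to -1.05; 4.89% of genes lower). The WT strips had 3843, 5874, 3263 and 9725 CPM and the Utx-cKO strips 2899, 737, 2854.5 and 1922 CPM, without overlap, which 3.06% of genes showed.

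Fibroblast markers were measured in the same cells. The summed level of 12 fibroblast markers, all of them detected in both sections, was 22072 CPM in WT and 18942 CPM in Utx-cKO epithelial cells, a log2 ratio of -0.22, with strips from 19355 to 23675 and from 16513 to 19712 CPM. In basal keratinocyte-like cells it was 16708 and 17041 CPM, in Krt1/Wnt3 cells 5000.2 and 8828 CPM, and in Lce1m/Hal cells 1682 and 2582 CPM. The sum was thus lower in Utx-cKO over all epithelial cells and not in these 3 clusters, which were chosen after their Igfbp3 values were seen. Basal keratinocyte-like cells also have the T cell genes Cd3e and Cd3g among their leading genes. The part of such neighbouring RNA in the result was not tested.

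The Lhx2/Tbx1 cluster held the most Fgf1 of the epithelial clusters, 595 and 190 transcripts. It had 3740 CPM in WT and 1485 CPM in Utx-cKO, for a log2 ratio of -1.33 (-1.58 to -1.09), the 2nd lowest of 221 genes; 9.05% of them were at least 1.5 times lower. WT strips had 3163, 4503, 3751 and 2981 CPM and Utx-cKO strips 1628, 2088, 1420 and 1227 CPM, without overlap, as for 4.07% of genes. Its share of all in-cell Fgf1 was 19.5% in WT and 10.2% in Utx-cKO. In the Serpinb11/Ptgds cluster Fgf1 was the lowest of 147 genes, at 1694 and 543 CPM (-1.64, -2.27 to -1.05; 6.12% of genes lower), from 110 and 31 transcripts, again without overlap of strips (874 to 2084 and 365 to 689 CPM), as for 2.04% of genes. In the Serpinb11/Krt17 cluster it was the lowest of 126 genes, at 2207 and 682 CPM (-1.70, -2.39 to -1.05; 7.14%), from 87 and 26 transcripts. Its strips just overlapped, 1426 to 2739 and 326 to 1465 CPM. The Dct/Pmel cluster, which holds melanocyte and follicle genes, had 2015 and 1013 CPM (-0.99, -1.56 to -0.43; 12.8%), and was -0.51 without Utx-cKO strip 3.

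Fibroblast markers were high in the Lhx2/Tbx1 cluster, 90023 CPM in WT and 95508 CPM in Utx-cKO, and their part in the result was not tested. This list holds Postn, which is among the leading genes of the cluster. The lower follicle markers Lhx2 and Tbx1 summed to 12910 and 15172 CPM there, with overlapping strips. Igfbp3 in the same cluster was 5921 and 7214.5 CPM, a log2 ratio of 0.29 (0.15 to 0.42), which turned to -0.15 without WT strip 3 and to -0.40 without Utx-cKO strip 4.

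**Figure D4:**
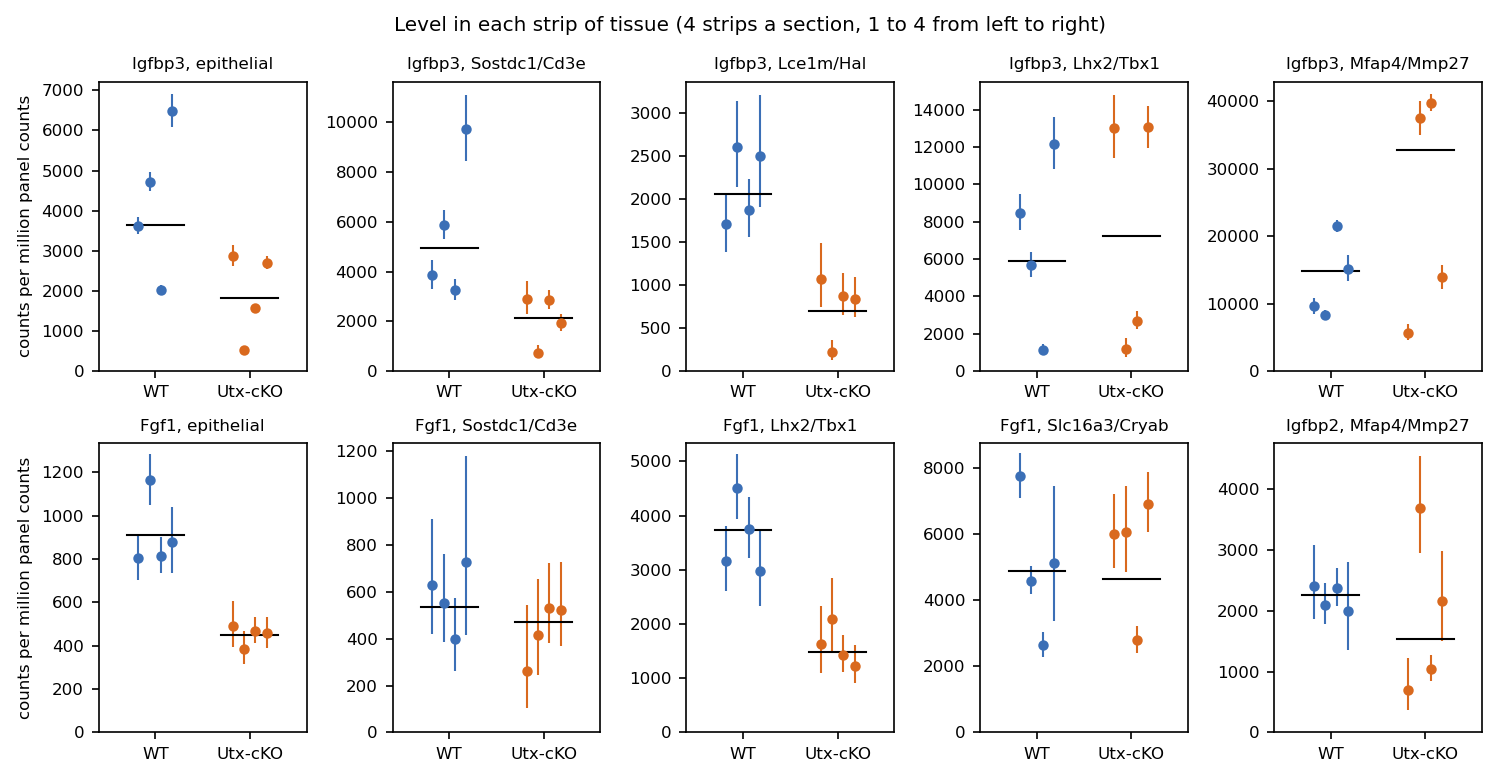
Level (CPM) in each of the 4 strips of WT (blue) and Utx-cKO (orange) for 10 pairs of gene and set of cells, with exact 95% Poisson intervals; black lines are the level over the whole set in that section. Utx-cKO points are all below WT points for Igfbp3 in Sostdc1/Cd3e and Lce1m/Hal and for Fgf1 in epithelial and Lhx2/Tbx1 cells, and overlap in the other 6 panels.

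Igfbp3 in the Lhx2/Tbx1 cluster differed more between strips than between sections. WT strips had 8481, 5668, 1119 and 12170 CPM and Utx-cKO strips 13027, 1178, 2702 and 13058 CPM. The 3 low strips, WT strip 3 and Utx-cKO strips 2 and 3, were the 3 with the highest Igfbp3 in Mfap4/Mmp27 fibroblast-like cells, 21481, 37511 and 39834 CPM. The other strips had 9642, 8317 and 15158 CPM (WT) and 5673 and 13877 CPM (Utx-cKO) in that cluster. Strips share a slide and may share an animal or a body site, and why they differ was not tested.

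In non-epithelial cells Igfbp3 was higher in Utx-cKO by CPM, with 14318 CPM (14116 to 14523) against 20755 CPM (20466 to 21046), which is 0.54 (0.51 to 0.56) on the log2 scale, but not by mean counts per cell, where the ratio was 0.045. Here 22.7% of 449 genes were at least 1.5 times higher and 2.0% lower (24.7% apart), and the median gene had 0.22, so Igfbp3 stood 335th from the lowest. By strip it was 6646, 7959, 24394 and 16872 CPM in WT and 9142, 18758, 28088 and 13107 CPM in Utx-cKO, which overlap. The ratio was 1.27 without WT strip 3, 0.16 without WT strip 2, but -0.056 without Utx-cKO strip 3, so its direction rests on that last strip. Fgf1 had 1439 and 1335 CPM (-0.11, -0.21 to -0.0051) and Igfbp2 555 and 462 CPM (-0.27, -0.44 to -0.094), both short of 1.5-fold. Both signs turned with 1 strip left out: Fgf1 was 0.25 without WT strip 1 but 0.073 without Utx-cKO strip 3, and Igfbp2 was 0.047 without Utx-cKO strip 3.

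Mfap4/Mmp27 fibroblast-like cells had the largest stromal difference in Igfbp3 among the clusters reported. Igfbp3 was 14886 CPM in WT and 32787 CPM in Utx-cKO, for a log2 ratio of 1.14 (1.07 to 1.20), the 2nd highest of 298 genes, and 0.84 by mean counts per cell; 10.1% of genes were at least 1.5 times higher. The strips overlapped, and the ratio was 0.51 without Utx-cKO strip 3 and 1.78 without WT strip 3. Thinned to 20 transcripts each, 17.6% of WT and 31.9% of Utx-cKO cells had an Igfbp3 transcript (28.7% and 43.3% before thinning, at median depths of 49 and 40), against 1.19% and 0.53% of sebocyte-like cells, where the gene is low. The Sfrp2/Fn1 fibroblast-like cluster had 25463 and 34421 CPM, a ratio of 0.43 (0.38 to 0.49) that was -0.081 by mean counts per cell, -0.52 without Utx-cKO strip 3 and 1.12 without WT strip 3. Fgf1 was low in the Mfap4/Mmp27 cluster, 304 and 545 CPM from 65 and 83 transcripts (0.84, 0.36 to 1.34), and was 0.34 without Utx-cKO strip 3.

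Fgf1 in the muscle-gene cluster Slc16a3/Cryab did not differ by the size rule in CPM, at 4873 and 4625 CPM, a log2 ratio of -0.075 (-0.22 to 0.065). WT strips had 2635 to 7737 CPM and Utx-cKO strips 2794 to 6908 CPM, and the ratio was 0.41 without Utx-cKO strip 3, 0.27 without WT strip 1 but -0.33 without Utx-cKO strip 4. By mean counts per cell Fgf1 was lower in Utx-cKO, at 0.63 and 0.34 a cell, a log2 ratio of -0.88 that is past 1.5-fold. Cells of this cluster were deeper in WT, with a median of 118 transcripts against 61. Thinned to 20 transcripts, 9.21% and 9.28% of them had an Fgf1 transcript (37.1% and 23.4% before thinning). Cd1d1/Fasn cells had 674 and 386 CPM of Fgf1 (-0.80, -1.44 to -0.21; 6.81% of 235 genes lower), from 120 and 29 transcripts, and -0.41 without WT strip 1.

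Igfbp2 was lower in several of its sources. In Mfap4/Mmp27 fibroblast-like cells it was 2251 CPM in WT and 1537 CPM in Utx-cKO, for a log2 ratio of -0.55 (-0.78 to -0.32), just short of 1.5-fold. WT strips were close together, 2410.5, 2099, 2370.5 and 1988 CPM, while Utx-cKO strips had 702, 3683, 1044 and 2153 CPM. The ratio was 0.062 without Utx-cKO strip 3 and -0.98 without Utx-cKO strip 2. In basal keratinocyte-like cells Igfbp2 had 544 and 292 CPM (-0.90, -1.37 to -0.44), with overlapping strips from 157 to 738 and from 207 to 339 CPM. In Krt1/Wnt3 cells it had 293 and 180 CPM (-0.71, -1.40 to -0.062), with overlapping strips, and was -0.37 with WT strip 3 left out and -0.48 with Utx-cKO strip 2 left out. In Myh11/Vwf cells it had 550.2 and 337 CPM (-0.71, -1.24 to -0.19; 2.44% of 287 genes lower). That last ratio was -0.044 without Utx-cKO strip 3 and -0.19 without WT strip 1. In sebocyte-like cells it had 628.5 and 459 CPM (-0.45, -0.85 to -0.056), short of 1.5-fold and 62nd from the lowest of 251 genes. There 19.9% of genes were at least 1.5 times lower, and the median gene had -0.16. The Igfbp2 ratio in these cells was -1.07 without WT strip 3 but -0.053 without Utx-cKO strip 3.

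The genes also differed in where in the cell their transcripts lay, a value that the choice of genes did not use. A transcript counts as nuclear where it overlaps the segmented nucleus. In WT epithelial cells 28.2% (23.3 to 33.5) of Igfbp2, 52.6% (51.1 to 54.0) of Igfbp3 and 64.8% (61.9 to 67.6) of Fgf1 transcripts were nuclear, against 48.5% of all panel transcripts. In Utx-cKO the shares were 47.2% (41.2 to 53.4), 49.5% (47.5 to 51.5) and 73.4% (69.7 to 76.9), against 48.2%. In non-epithelial cells they were 35.5%, 39.1% and 50.7% in WT, against 43.5%, and 41.6%, 43.7% and 56.2% in Utx-cKO, against 49.1%. Fgf1 was above the share of all panel transcripts in each of these sets, but in non-epithelial cells it was below the median gene, 61.0% in WT and 65.2% in Utx-cKO. Igfbp2 was below it, by less than its counting interval in Utx-cKO epithelial cells.

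Among clusters with at least 20 Igfbp2 transcripts, its nuclear share was lowest in basal keratinocyte-like and Krt1/Wnt3 cells. In WT basal keratinocyte-like cells 11.8% (6.45 to 19.4) of 110 transcripts were nuclear, the lowest share of 255 genes with at least 100 transcripts, against 56.6% of all panel transcripts. The median Igfbp2 transcript there lay 2.13 µm from the nucleus, and 74.5% lay more than 1 µm away, against 19.4% of Igfbp3 transcripts. Krt1/Wnt3 cells had 12.7% (6.24 to 22.0). Mfap4/Mmp27 fibroblast-like cells were below the panel too, at 34.0% (29.8 to 38.4) against 47.8% in WT and 36.8% (30.6 to 43.3) against 52.2% in Utx-cKO. Utx-cKO had 20.6% (11.5 to 32.7) and 18.5% (6.30 to 38.1) in the basal keratinocyte-like and Krt1/Wnt3 clusters, from 63 and 27 transcripts, with intervals that overlap those of WT. Sebocyte-like cells stood opposite, at 56.8% (46.3 to 67.0) and 67.4% (58.6 to 75.4), against 38.8% and 38.5% of all panel transcripts.

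By strip the nuclear share of epithelial Igfbp2 was 40.6% to 60.8% in Utx-cKO and 23.8% to 40.5% in WT. The ranges all but touch, at 40.5% of 42 transcripts in WT strip 4 and 40.6% of 69 in Utx-cKO strip 4. How many panel genes part by strip in this share was not counted. Sebocyte-like cells made up 7.07% of kept Utx-cKO cells against 3.80% in WT and held 18.2% of all in-cell Igfbp2 against 8.97%. Split by place and summed over epithelial clusters, Igfbp2 over nuclei was higher in Utx-cKO, at 149 and 199 CPM (log2 ratio 0.42, 0.016 to 0.82). Outside nuclei it was lower, at 358 and 207 CPM (-0.79, -1.10 to -0.48). The rise over nuclei was not seen within its main epithelial clusters. There the ratio was -0.13 in basal keratinocyte-like, -0.17 in Krt1/Wnt3 and -0.19 in sebocyte-like cells, each with an interval that spans 0. The other epithelial clusters, some of them higher, had at most 9 such transcripts in a section. Epithelial Igfbp3 was lower in both places, -1.07 (-1.17 to -0.97) over nuclei and -0.91 (-1.01 to -0.81) outside. Fgf1 was lower by -0.82 (-0.998 to -0.65) over nuclei and -1.42 (-1.70 to -1.16) outside. For Igfbp3 and Fgf1 these are parts of the epithelial counts by which the genes were chosen, so they add no separate support.

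**Figure D5:**
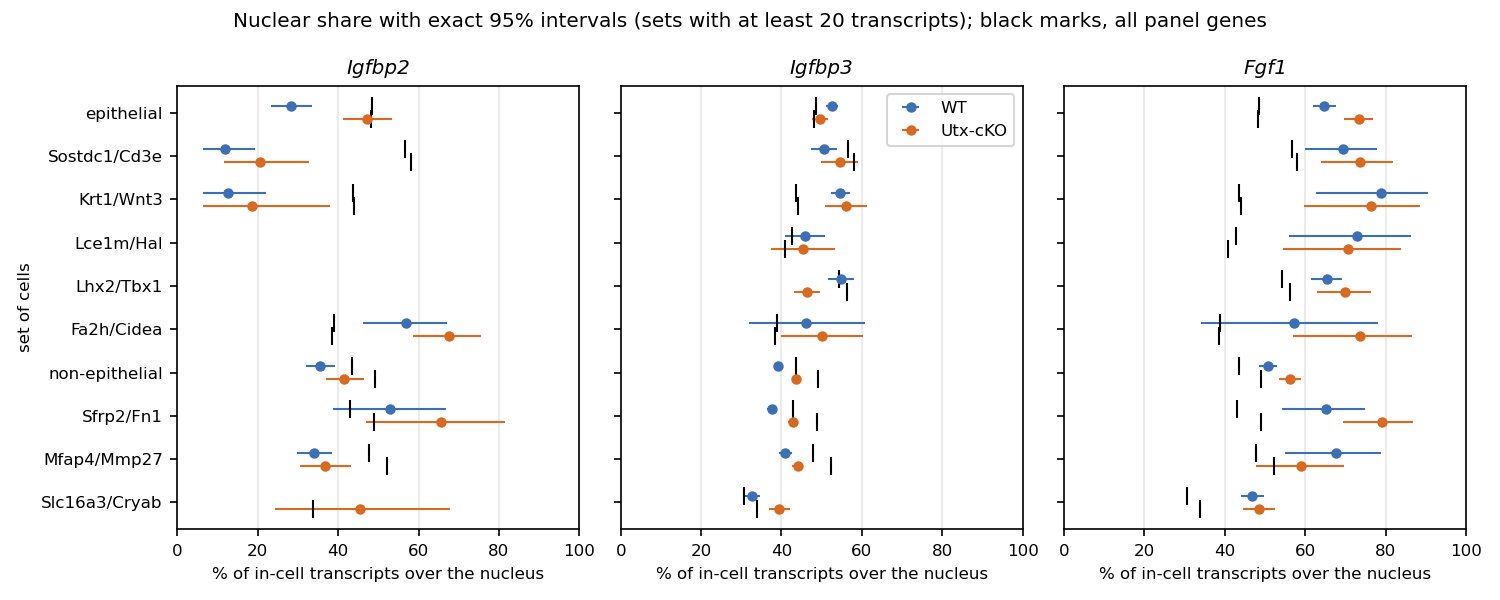
Percent of in-cell transcripts of each gene over the nucleus in epithelial and non-epithelial sets of cells, WT in blue and Utx-cKO in orange, with exact 95% intervals; black marks give the share over all panel genes, and sets with under 20 transcripts are left out. Igfbp2 sits at 11.8% in Sostdc1/Cd3e and 56.8% in Fa2h/Cidea cells of WT, and Fgf1 lies right of the marks in most sets.

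In the Lhx2/Tbx1 cluster the nuclear share of Igfbp3 was 54.8% (51.5 to 58.0) in WT and 46.3% (43.0 to 49.5) in Utx-cKO, where all panel transcripts had 54.2% and 56.3%. Fgf1 there had 65.4% (61.4 to 69.2) and 70.0% (62.9 to 76.4). Fibroblast-like cells had lower Igfbp3 shares, 37.7% and 42.9% in Sfrp2/Fn1 and 41.0% and 44.0% in Mfap4/Mmp27, below the panel in both sections.

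Of 70 other genes of insulin-like and fibroblast growth factor signalling and related pathways listed for comparison, 9 were on the panel. None of the 9 was at least 1.5 times higher or lower in epithelial cells, where 15.7% of all genes were, with a median log2 ratio of -0.24 beside 0.12 for all genes. Igfbp5, a further binding protein and in RefSeq (GRCm38.p6) the protein-coding gene next to Igfbp2 on the chromosome, had 1405.5 and 1058 CPM there (-0.41, -0.51 to -0.31). Htra1, a secreted protease that cleaves such binding proteins, had 1399 and 1072 CPM (-0.38, -0.49 to -0.28). Fgfbp1, which releases fibroblast growth factors from the matrix, had 3352 and 3836 CPM (0.19, 0.13 to 0.25). In non-epithelial cells 2 of the 9 were at least 1.5 times higher and none lower, a share close to the 22.7% of all genes that were higher, with a median of 0.19 beside 0.22. These were Fgfbp1, 172 and 277 CPM (0.69, 0.43 to 0.95), and the epidermal growth factor family ligand Ereg, 151 and 253 CPM (0.74, 0.47 to 1.02).

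Over the 17 clusters, genes with the most similar pattern of levels were sought by the correlation of log2(CPM + 10). Clusters share their libraries, so the values are a description. Igfbp2 was closest to Mfap4 (r = 0.67 in WT and 0.71 in Utx-cKO), Thy1 (0.64 and 0.71) and Ccl19 (0.71 and 0.59). Mfap4 and Ccl19 are among the leading genes of the Mfap4/Mmp27 fibroblast-like cluster, and Thy1 is not. Igfbp3 was closest to St3gal2 (0.82 and 0.92), Apod (0.78 and 0.88) and Col6a1 (0.74 and 0.90), and Fgf1 to Enah (0.86 and 0.76), Pbxip1 (0.73 and 0.87) and the small heat shock gene Cryab (0.77 and 0.83). In epithelial cells these 9 genes had log2 ratios from -0.55 (Enah, -0.65 to -0.46) to 0.0092 (Pbxip1, -0.11 to 0.13), none at 1.5-fold.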

How the data were processed

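The deposited cell tables and transcript tables of 2 Xenium sections were used. Per the file headers, each transcript row gives gene, position, cell, distance to the nucleus, a nucleus overlap flag and a quality score, which reached 40. In all 40371 and 52308 cells the deposited count per cell equals its transcripts at a score of 20 or more. The deposited cell and nucleus areas, a signal in square µm with no normalization per the file headers, entered no level. Software for decoding and segmentation: not given in the sources used here. The 2 sections share 2 cell names, taken as different cells.

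In-cell transcripts were counted in cells with at least 20. No doublet caller was run. Cells were clustered with scanpy 1.11.5 (30 components, 15 neighbours, Leiden resolution 1) without the 3 genes, and called epithelial where keratinocyte markers made up at least 6% of a cluster's counts. CPM are counts per total panel counts of a set. The values of 1 cluster are not reported here. A name needed at least 3 own markers among the 10 leading genes. Genes needed 200 counts over both sections, or 100 within a cluster, for a ratio. Strips are connected tissue areas with at least 1000 cells. Intervals are exact (Poisson, conditional binomial, Clopper-Pearson). The comparison was run on simulated Poisson counts drawn from a pooled profile with known folds. These held no spread between animals or strips, so the run says nothing about that spread.

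The genes, marker lists, pathway list and naming rules were chosen with earlier results of these data known; the sums over clusters and the map window after seeing these values. Named genes are the 3 genes, Kdm6a, the 3 most similar genes of each and pathway genes past 1.5-fold; Igfbp5, Htra1 and leading genes of clusters were added after their values were seen. Alternatives were score 30, nuclei alone, a minimum of 40 transcripts, other scales, thinning, other groupings, equal cluster shares and each strip left out.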

Additional observations from a re-analysis of the deposited data

Results flagged for a closer look

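The log2 ratio of Igfbp3, Utx-cKO over WT, was -0.99 in epithelial and 0.54 in non-epithelial cells, a difference of -1.53. The gene was chosen by the first value, so part of the contrast comes from that choice, and the second was -0.056 without Utx-cKO strip 3. The difference was not tested, since each group has 1 section. The strips overlapped in both sets of cells, and by mean counts per cell the ratios were -1.24 and 0.045.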

How the results depend on the processing

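No paired analysis was possible because each group has 1 section. With 1 section per group the limits are the animals, which no interval covers, and depth: Igfbp2 had 316 and 271 transcripts in epithelial cells. Log2 ratios that moved past their counting intervals follow.

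In epithelial cells Igfbp2 was 0.42 by nuclei alone and -0.59 by mean counts per cell. Igfbp3 was -1.07 at a score of 30, -1.07 by nuclei, -1.24 by mean counts, -1.11 centred on the median gene, -0.79 thinned, -0.86 with cells called by their own markers and -0.58, just under 1.5-fold, at equal cluster shares. Without WT strips 2, 3 and 4 it was -0.83, -1.34 and -0.83, and without Utx-cKO strips 1 to 4 -1.12, -0.74, -0.87 and -1.28. Fgf1 was -0.82 by nuclei, -1.26 by mean counts, -0.84 thinned and -0.86 without WT strip 2.

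In non-epithelial cells Igfbp2 was -0.53 at 40 transcripts, -0.76 by mean counts, -0.49 centred, and -0.63 and 0.047 without Utx-cKO strips 2 and 3. Igfbp3 was 0.60 at 40 transcripts, 0.045 by mean counts, 0.32 centred, 0.48 thinned and 0.49 with own markers. It was 0.39, 0.16 and 1.27 without WT strips 1 to 3, and 0.68, 0.56, -0.056 and 0.65 without Utx-cKO strips 1 to 4. Fgf1 was -0.60 by mean counts, -0.33 centred, 0.077 thinned, 0.046 at equal shares, 0.25 and -0.40 without WT strips 1 and 3, and 0.073 and -0.27 without Utx-cKO strips 3 and 4. Causes were not tested.

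Genes at least 1.5 times apart numbered 69 in epithelial cells (14 lower, 55 higher) and 111 in non-epithelial cells (9 lower, 102 higher). By mean counts per cell they were 80 (56 lower, 24 higher) and 75 (72 lower, 3 higher), and centred 71 (29 lower, 42 higher) and 55 (16 lower, 39 higher). Nuclear share differences of Igfbp2, Igfbp3 and Fgf1 in epithelial cells kept their direction under the 3 alternatives run for each, at 18.9 to 21.4, -3.35 to -3.01 and 7.78 to 10.5 percentage points. None of these left out a strip or set cluster shares equal. Igfbp3 strips overlapped, 44.5% to 55.6% in WT and 43.7% to 68.3% in Utx-cKO. Its share was 52.2% and 53.5% in the basal to granular clusters. It was 53.2% and 44.9% in the summed clusters with Lhx2 among their leading genes, and 55.9% and 58.1% in Sprr1a/Krt79 with Fa2h/Cidea.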
